A study of Mus musculus with 18 samples.

Results

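The miR-148 and miR-152 family was followed in BV-2 cells, an immortalized mouse microglial line, with and without bacterial lipopolysaccharide (LPS), cannabidiol (CBD) and Δ9-tetrahydrocannabinol (THC). Its members were taken by name: every row named for mmu-mir-148a, mmu-mir-148b or mmu-mir-152 or for one of their mature arms, which gave 9 rows, 3 hairpins and 6 arms, of the 2134 rows measured. Of these, 8 had at least 10 reads over all samples and entered the tests. The remaining arm, miR-148a-5p, had 7 reads in all and was not tested.

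Small RNA was sequenced from 18 samples in 6 groups of 3: untreated control (Ctrl), LPS, CBD, THC, CBD with LPS (CBD+LPS) and THC with LPS (THC+LPS). Cannabinoids were given at 10 μM for 6 h in all, and LPS at 100 ng/ml for the last 4 h, after 2 h of cannabinoid alone. Sample names carry numbers from 22 to 39 with none repeated, and the labels do not say whether the 3 samples of a group came from separate cultures, so p-values measure the spread between these samples, which may be technical. All are one cell line, with no primary microglia among them.

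The miRNAs of this family are made from separate genes, and their 3p arms share one seed, the bases 2 to 8 by which a miRNA pairs with its target mRNAs. The family is known for repressing the DNA methyltransferase DNMT1 and, in dendritic cells stimulated through Toll-like receptors (TLRs), for repressing the kinase CaMKIIα and so dampening cytokine release and antigen presentation. LPS is the ligand of TLR4, the receptor through which microglia sense bacterial cell wall. In each hairpin the arm nearer the 5′ end is called 5p and the other 3p, and usually one arm is kept and the other degraded.

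The 3 mature 3p arms are shown because they are nearly the same molecule, with the seed in capitals (sequences 5′ to 3′ from RefSeq, GRCm38.p6; all 6 arms and 3 hairpins matched by name).
mmu-miR-148a-3p: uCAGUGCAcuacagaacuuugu
mmu-miR-148b-3p: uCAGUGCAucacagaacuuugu
mmu-miR-152-3p: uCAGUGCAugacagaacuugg
Counted from the 5′ end, miR-148a-3p differs from miR-148b-3p by U9C and C10U, and miR-152-3p differs from miR-148b-3p by C10G and U20G. From miR-148a-3p to miR-152-3p the changes are C9U, U10G and U20G. All 3 fall outside the seed, and no other mature miRNA among the 1679 names in the reference table has CAGUGCA at bases 2 to 8. Since the study allowed up to 10 mapping positions per read and does not state how such reads were counted, the division of reads between members with so few differences is uncertain.

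The 5p arms differ more, and their seeds, again in capitals, show where the family splits.
mmu-miR-148a-5p: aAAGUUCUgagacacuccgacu
mmu-miR-148b-5p: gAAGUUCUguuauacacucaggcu
mmu-miR-152-5p: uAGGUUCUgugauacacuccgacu
Here miR-148a-5p and miR-148b-5p share the seed AAGUUCU, and miR-152-5p has AGGUUCU. Of the bases compared from the 5′ end, 9 of 22 differ between miR-148b-5p and miR-148a-5p, and 5 of 24 between miR-148b-5p and miR-152-5p.

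The hairpins of the most and the least abundant members are shown with both arms in capitals, since reads were recorded under the hairpin names as well.
mmu-mir-148b: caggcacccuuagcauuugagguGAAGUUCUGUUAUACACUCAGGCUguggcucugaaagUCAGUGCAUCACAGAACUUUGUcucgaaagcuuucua
mmu-mir-148a: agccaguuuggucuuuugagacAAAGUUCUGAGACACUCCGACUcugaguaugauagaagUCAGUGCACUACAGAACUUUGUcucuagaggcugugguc
In GRCm38 (GENCODE M21), mir-148b lies at chr15:103285125-103285221 on the plus strand, in an intron of Copz1, which encodes a coat protein of COPI vesicles and runs in the same direction. A paralog of that host carries mir-152, at chr11:96850393-96850465 on the plus strand, in an intron of Copz2. The gene of mir-148a, at chr6:51269812-51269910 on the minus strand, overlaps no annotated gene, and the nearest one, the lincRNA Gm32479, is 13622 bases away.

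The samples held 442718 to 1057147 reads (median 773271). Values are CPM, reads scaled by the authors for the size of each library and by a TMM factor, a further scale for each sample. The order of samples in CPM can therefore differ from their order by share of all reads. A count of 3 reads, taken here as the floor of detection, corresponds to 2.98 to 6.38 CPM depending on the sample, for counting error only. As a check of the cell type, the 6 rows of the myeloid miRNAs miR-142 and miR-223 summed to 9987 to 17201 CPM, whereas the rows of neuronal miR-124 and miR-9 summed to 7.11 to 23.3, of muscle miR-1a, miR-133a and miR-206 to 4.05 to 14.4, and of liver miR-122 to 0 to 2.87 CPM. Some samples stood apart. Control sample 22 had the fewest reads, and in Ctrl 22, THC+LPS 27, CBD 30 and CBD 36 the abundant hairpin rows mir-6243, mir-6240 and mir-6236 together took 0.151% to 0.361% of reads against 1.197% to 4.55% elsewhere. Calls that change without one of these samples are given both ways.

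In these cells the family was miR-148b with a smaller amount of miR-152. Of 32148 mature family reads over all samples, miR-148b accounted for 78.0% (25083 reads), miR-152 for 21.7% (6988 reads) and miR-148a for 0.240% (77 reads). The most abundant arm, miR-148b-3p, averaged 1570 CPM and ranked 66 among 1279 mature rows, miR-152-3p averaged 516 CPM (rank 103) and miR-148b-5p 286 CPM. Far below these, miR-148a-3p averaged 5.47 CPM (rank 446). The order miR-148b-3p, miR-152-3p, miR-148b-5p, mir-148b, mir-152 held within 18 of 18 samples, and mir-152 was above miR-148a-3p in 17 of 18. Levels of different rows are read here as read counts, which also carry the ligation and amplification bias of each sequence.

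**Figure D1:**
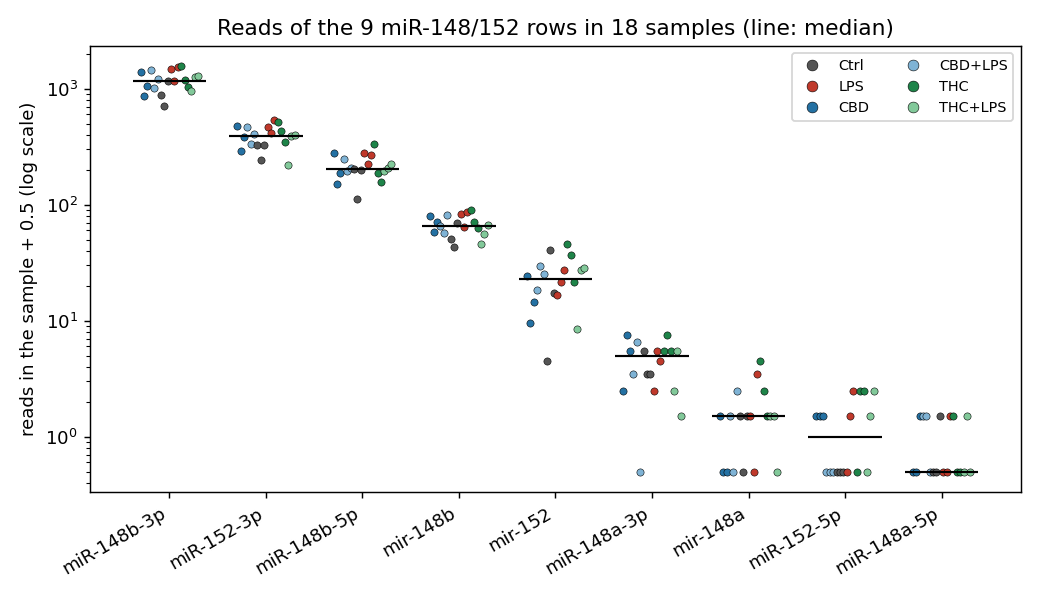
Reads in each of 18 samples, with 0.5 added, on a log axis for the 9 family rows, coloured by treatment, with a line at the median. The rows descend from miR-148b-3p to miR-148a-5p, and the last 4 rows stand at 0 to 7 reads in every sample.

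The dominant arm, miR-148b-3p, was at 1859, 1211 and 1357 CPM in the 3 control samples (22, 28 and 34). It was at 1941, 1537 and 1595 CPM with LPS, at 2011, 1611 and 1667 with CBD, and at 1555, 1403 and 1409 with THC. With both agents it was at 1641, 1355 and 1449 CPM for CBD+LPS and at 1697, 1492 and 1476 for THC+LPS. The control samples spanned nearly the whole range, and every THC, CBD+LPS and THC+LPS sample fell inside the control range. Over all 18 samples its coefficient of variation was 13.4%.

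Its partner strand, miR-148b-5p, was read at 427.5, 191.5 and 229.5 CPM in the control samples. Values were 364.8, 293.9 and 275 CPM with LPS, 400.1, 279.8 and 294 with CBD, and 330.1, 223.1 and 213.4 with THC. For CBD+LPS they were 280.8, 256.3 and 245.9 CPM, and for THC+LPS 346.5, 245.9 and 254.4. All samples of all treatments lay within the control range, whose upper end was sample 22. Relative variation was wider than for the 3p arm, with a coefficient of variation of 22.7%.

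The 3p arm of miR-152 was at 701.8, 412.1 and 381 CPM in the control samples. It was at 612, 546.8 and 552 CPM with LPS, at 678.3, 540.8 and 608.5 with CBD, and at 518.1, 513.4 and 467.4 with THC. For CBD+LPS the values were 522.1, 439.6 and 489.4 CPM, and for THC+LPS 392.7, 461 and 457.2. In CPM the LPS samples lay above every CBD+LPS and every THC+LPS sample, while control samples again covered nearly the full range.

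The hairpin row mir-148b was at 106.3, 73.5 and 80.4 CPM in the control samples, at 108.5, 84.7 and 88.6 with LPS, and at 114.7, 108.9 and 112.2 with CBD. It was at 88.5, 83.8 and 83.8 CPM with THC, at 73.3, 75.7 and 97.2 with CBD+LPS, and at 80.0, 65.0 and 75.6 with THC+LPS. The CBD samples were the highest of any group in CPM and close together (112 ± 2.92 CPM, SD, n = 3). The lowest of them lay just above the highest sample of any other group, LPS at 108.5 CPM. By share of all reads in the sample this order is lost. CBD sample 30 held 58 of 541844 reads, a smaller share than the 50 of 442718 in control sample 22. How many of all rows had CBD highest in this way was not counted. The hairpin mir-152 was scattered, with group means from 24.5 ± 8.99 CPM with CBD to 38.5 ± 8.88 with THC and the widest spread in control samples, 32.2 ± 31.8 (SD, n = 3 each). Its coefficient of variation over all samples was 46.5%.

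The remaining rows were at or near the floor. In the order Ctrl, LPS, CBD, THC, CBD+LPS, THC+LPS, with samples by number within each, miR-148a-3p had 5, 3, 3, then 2, 5, 4, then 2, 7, 5, then 5, 7, 5, then 3, 6, 0 and finally 2, 5, 1 reads. The hairpin mir-148a had 19 reads in all and at most 4 in a sample, and miR-152-5p had 13 reads, at most 2 in a sample. Any difference in these rows rests on a few reads.

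**Figure D2:**
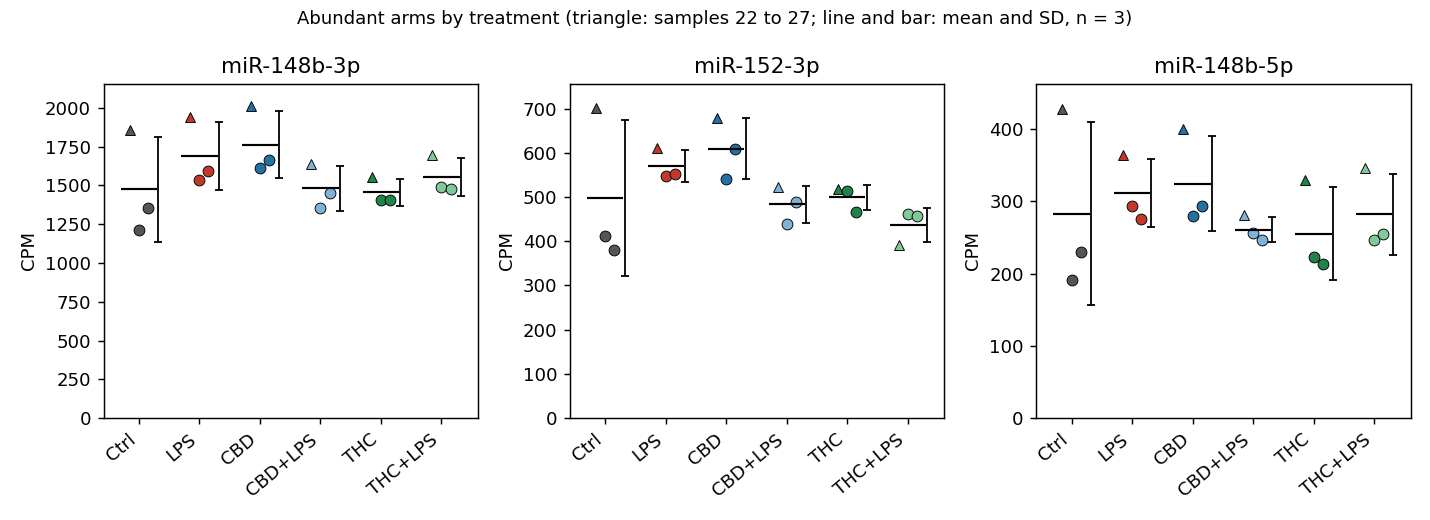
CPM on linear axes for the 3 abundant arms by treatment, each point a sample and each line and bar the mean and SD of 3 samples, with triangles for samples 22 to 27. The triangle is the highest point of all 6 groups for miR-148b-3p and miR-148b-5p.

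One regularity across treatments concerned sample number. In all 6 groups the highest sample for miR-148b-3p and for miR-148b-5p was the one numbered 22 to 27, as it was in 5 of 6 groups for miR-152-3p and mir-148b. For mir-152 this held in 2 of 6, and in 4 of 6 groups the sample numbered 22 to 27 was its lowest. The mean of samples 22 to 27 was 1784 CPM for miR-148b-3p against 1464 in samples 28 to 39, 358 against 250.2 CPM for miR-148b-5p, and 571 against 489 CPM for miR-152-3p. The labels do not say what distinguishes these numbers, and each group holds 1 sample of the first set and 2 of the second. This grouping was noticed in the data and no test was made of it. How many rows outside the family show it was not counted, so it is not given as a trait of the family.

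Treatment differences were tested with limma on log2(CPM + 1) over 1363 rows, all 6 groups in 1 model, and a row was called where it differed by 1.5-fold or more with p no higher than 0.005 before adjustment. The test across the 6 groups, the pooled LPS test and the interactions were instead called where the adjusted p was no higher than 0.1, without a fold limit. A log2 difference on this scale understates the change of rows at few reads. None of the 8 tested family rows was called in any comparison by limma, by edgeR's quasi-likelihood test or by DESeq2. In the test for any difference across the 6 groups, 0 of 8 were called where 1.76% of all rows were, and below an unadjusted p of 0.05 the count was 0 with each tool. The smallest adjusted p in the family was 0.633, for miR-152-5p, which rests on 13 reads. For the abundant arms it was 0.977 (miR-148b-3p), 0.848 (miR-152-3p) and 0.996 (miR-148b-5p).

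For LPS against control, which asks whether the family responds to TLR4 activation, 0 of 8 family rows were called by limma, edgeR or DESeq2, against 1.54% of all rows, and 0 reached an unadjusted p of 0.05 by any of the 3 tools. The log2 difference was 0.21 for miR-148b-3p (SE 0.18; 1.16-fold, 95% interval 0.895 to 1.502; adjusted p = 0.966). It was 0.25 for miR-152-3p (SE 0.21; 1.19-fold, interval 0.877 to 1.61) and 0.22 for miR-148b-5p (SE 0.28; 1.16-fold, interval 0.775 to 1.74). No family row separated the LPS samples from the control samples, whereas 9.39% of all rows did. Over the 8 rows the median log2 difference was 0.19, and over all 1363 rows it was 0.11.

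Other miRNAs rose with LPS. Of 31 tested rows of miRNAs tied to TLR signaling, a list chosen with results of these data known, 8 were called higher and 0 lower with LPS, with a median log2 difference of 0.47. They were the 3 rows of miR-155 (log2 differences of 2.77 for the hairpin, 4.87 for 3p and 3.33 for 5p), the 3 of miR-21a (1.57, 1.73 and 1.08) and both arms of miR-146a (2.28 for 3p and 0.91 for 5p). The upper limits of the intervals for miR-148b-3p and miR-152-3p, 1.502-fold and 1.61-fold, stand beside these. In the 9 samples with LPS against the 9 without, pooled over cannabinoid, 0 of 8 family rows were called against 1.54% of all rows, and 0 reached an unadjusted p of 0.05 by any tool. The log2 difference was 0.02 for miR-148b-3p (SE 0.11; interval 0.867-fold to 1.18-fold) and -0.09 for miR-152-3p (SE 0.13; 0.780-fold to 1.13-fold).

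For CBD against control, 0 of 8 were called, against 1.61% of all rows, and miR-152-5p, at 0 reads in every control sample and 1 in every CBD sample, was the single row at an unadjusted p under 0.05 by limma (adjusted p = 0.437), with 0 rows by edgeR and DESeq2. The means of the abundant arms and of mir-148b were higher with CBD. For mir-152 the mean was lower, at 24.5 CPM against 32.2 in control samples, with a log2 difference of 0.03. The log2 difference was 0.27 for miR-148b-3p (1.21-fold, interval 0.933 to 1.57; adjusted p = 0.646 by limma), 0.34 for miR-152-3p (1.26-fold, interval 0.934 to 1.71) and 0.38 for mir-148b (1.303-fold, interval 0.947 to 1.79). The CBD samples lay above all control samples in 2 of 8 family rows, mir-148b and miR-152-5p, beside 10.2% of all rows that separated in either direction. For mir-148b this holds in CPM and not by share of all reads in the sample, as given above.

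These values leaned on control sample 22. Without it, miR-152-3p was 1.53-fold higher with CBD (log2 difference 0.61; adjusted p = 0.105 by limma) and met the criterion, among 61 of 1354 rows (4.51%) that did. In samples 28 to 39 alone, 2 a group, the log2 differences for CBD were 0.53 for miR-152-3p (adjusted p = 0.0100 by limma), 0.35 for miR-148b-3p (adjusted p = 0.0365) and 0.45 for miR-148b-5p (adjusted p = 0.0489), none of which met the criterion for a call, while 151 of 1192 rows did. Both CBD samples of that subset, and no others in it, have the low share on mir-6243, mir-6240 and mir-6236 given above (0.160% and 0.151%), so CBD and that composition cannot be told apart there. LPS differences moved in the same way. With single samples left out, the log2 difference for LPS against control ran from 0.0826 (without control sample 28) to 0.3917 for miR-148b-3p and from 0.0825 (without control sample 34) to 0.5223 for miR-152-3p, in both cases highest without control sample 22 (adjusted p = 0.817 and 0.514 by limma), with no call. In samples 28 to 39 alone they were 0.29 for miR-148b-3p (adjusted p = 0.204 by limma), 0.44 for miR-148b-5p (adjusted p = 0.164) and 0.47 for miR-152-3p (adjusted p = 0.0750), and none met the criterion, while 36 of 1192 rows did. The hairpin mir-152 went the other way. For CBD against control its log2 difference was -0.63 without control sample 22 and -0.90 in samples 28 to 39. For LPS against control it was -0.53 and -0.40, again with no call.

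For THC against control, 0 of 8 were called, against 0.440% of all rows. The log2 difference was 0.00 for miR-148b-3p (interval 0.774-fold to 1.298-fold), 0.06 for miR-152-3p (0.769-fold to 1.41-fold) and -0.09 for miR-148b-5p (0.629-fold to 1.41-fold), values whose sign turned under other scalings, tools or sample sets. The hairpin mir-152 differed by 0.70 (1.62-fold, interval 0.728 to 3.61; adjusted p = 0.977 by limma), and by 0.03 without control sample 22. By limma 1 row, miR-152-5p, was under an unadjusted p of 0.05 (adjusted p = 0.977), and 0 were by edgeR or DESeq2. It met the criterion when THC sample 25 was left out (adjusted p = 0.926 by limma), among 6 of 1330 rows (0.451%) that did. That call rests on 2 reads in each of the other THC samples and 0 in each control sample. No family row separated THC from control samples, while 6.82% of all rows did.

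Between the cannabinoids in cells without LPS, given at the same dose for the same time, 0 of 8 family rows were called for CBD against THC, against 3.30% of all rows, and 0 reached an unadjusted p of 0.05 by any tool. In CPM, CBD samples lay above all THC samples in 3 of 8 rows, miR-148b-3p, miR-152-3p and mir-148b, in a comparison where 20.6% of all rows separated. By share of all reads in the sample, the groups overlap in all 3 rows. THC sample 25 held 1564 miR-148b-3p, 521 miR-152-3p and 89 mir-148b reads of 782757. CBD sample 30 held 858, 288 and 58 of 541844, which are smaller shares. For miR-148b-3p the lowest CBD sample was at 1611 CPM and the highest THC sample at 1555. The difference was 1.21-fold for miR-148b-3p (interval 0.931 to 1.56; adjusted p = 0.501 by limma), 1.22-fold for miR-152-3p (0.898 to 1.64) and 1.31-fold for mir-148b (0.951 to 1.80). Scaling to miR-191-5p and miR-103-3p, used as references by the study, moved the median of all rows by -0.23 and took the log2 difference of miR-148b-3p to -0.0054.

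**Figure D3:**
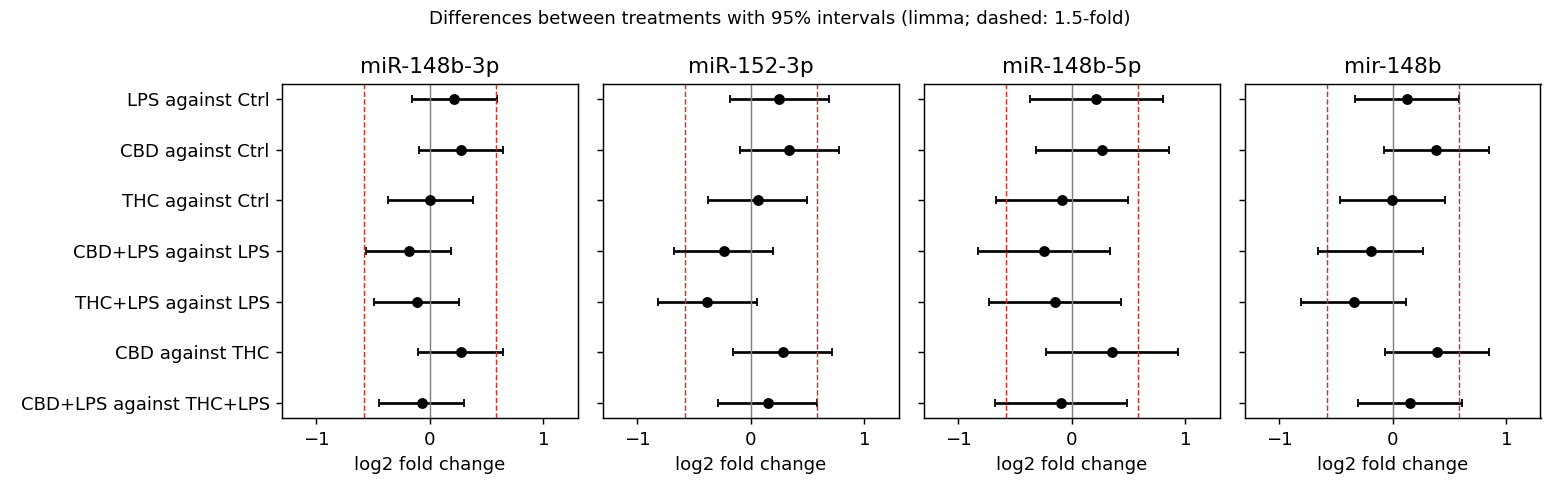
Log2 fold change (horizontal axis) with 95% interval from limma for 4 family rows in 7 comparisons, with dashed lines at 1.5-fold. All the intervals shown cross 0.

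In LPS-treated cells the question was whether a cannabinoid given first changed the family. For CBD+LPS against LPS, 0 of 8 were called, against 0.220% of all rows, and 0 reached an unadjusted p of 0.05 by any tool. In CPM, all 3 samples of CBD+LPS were below all LPS samples for miR-152-3p alone, 1 of 8 family rows, beside 9.32% of all rows separating either way. By share of all reads in the sample these groups overlap. CBD+LPS sample 26 held 463 of 773522 reads, a larger share than the 413 of 842970 in LPS sample 29. The log2 difference of miR-152-3p was -0.24 (0.848-fold, interval 0.626 to 1.15) and that of miR-148b-3p was -0.19 (0.878-fold, interval 0.678 to 1.14).

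For THC+LPS against LPS, 0 of 8 were called, against 0.220% of all rows, and again 0 reached an unadjusted p of 0.05 by any tool. Here miR-152-3p and mir-148b, 2 of 8 rows, lay wholly below the LPS samples in CPM, where 7.19% of all rows separated. For mir-148b the groups overlap by share of all reads in the sample. THC+LPS sample 27 held 45 of 539785 reads, a larger share than the 64 of 842970 in LPS sample 29. The log2 difference was -0.39 for miR-152-3p (0.766-fold, interval 0.566 to 1.04; adjusted p = 0.9998 by limma) and -0.35 for mir-148b (0.787-fold, interval 0.572 to 1.08). The lowest miR-152-3p value of all 6 samples was 392.7 CPM, in THC+LPS sample 27.

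For CBD+LPS against THC+LPS, 0 of 8 were called, against 0.147% of all rows, none separated the groups where 6.53% of all rows did, and 0 reached an unadjusted p of 0.05 by any tool. The log2 difference was -0.07 for miR-148b-3p and 0.15 for miR-152-3p. Against untreated control, 0 of 8 were called with CBD+LPS, against 1.39% of all rows, and with THC+LPS, against 1.83%, with 0 at an unadjusted p of 0.05 by any tool in either. The log2 difference of miR-152-3p was 0.01 with CBD+LPS (0.744-fold to 1.36-fold) and -0.14 with THC+LPS (0.672-fold to 1.23-fold). These comparisons and those above share the control or LPS samples.

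Whether the LPS difference itself depended on the cannabinoid was tested as an interaction, which was added after the values had been seen. With CBD the LPS difference of miR-152-3p differed by -0.58 on the log2 scale (SE 0.29; adjusted p = 0.979 by limma), and that of miR-148b-3p by -0.46 (SE 0.25; adjusted p = 0.979). With THC the interaction was -0.44 for miR-152-3p (SE 0.29) and -0.12 for miR-148b-3p (SE 0.25). The calls were 0 of 8 in the family and 0 of all 1363 rows for both, while 1 family row, miR-152-5p, was under an unadjusted p of 0.05 with CBD (adjusted p = 0.909 by limma), with 1 row by edgeR and 0 by DESeq2. In samples 28 to 39 alone, 4 family rows were called for the CBD interaction by the adjusted p alone, miR-152-3p at -0.78 (adjusted p = 0.0130 by limma), miR-148b-3p, miR-148b-5p and miR-152-5p, among 134 of 1192 rows (11.2%), and there the composition of both CBD samples cannot be told apart from CBD.

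The sample numbers run through the 6 treatments in 1 order 3 times (22 to 27, 28 to 33, 34 to 39), so the same comparisons were also made within these sets. The labels do not say that a set shares a culture or day, and the fit was added after the values had been seen. In CPM, miR-148b-3p was higher with CBD than in the control sample of its set by 151.8, 400.5 and 310.1, and higher with LPS by 81.8, 326 and 238, in 3 of 3 sets each. For miR-152-3p both agents were higher in 2 of 3 sets and lower in the set of control sample 22. CBD was above THC in 3 of 3 sets for miR-148b-3p, miR-148b-5p, miR-152-3p and mir-148b. The hairpin mir-152 went the other way in each set, at 34.4, 16.9 and 22.1 CPM with CBD and 44.7, 42.5 and 28.4 with THC. The arms miR-148b-3p, miR-148b-5p and miR-152-3p were lower with CBD+LPS than with LPS alone, and lower with THC+LPS than with LPS alone, in 3 of 3 sets. How many of all rows kept 1 direction in 3 of 3 sets was not counted. With the sets as a block in limma the log2 differences are the same by construction and the error narrows: for miR-148b-3p the SE for CBD against control was 0.11 (adjusted p = 0.375) and for LPS against control 0.11 (adjusted p = 0.650). The CBD interaction of miR-148b-3p had an SE of 0.16 (adjusted p = 0.583 by limma). In this fit 0 of 8 family rows were called in any comparison, against 0% (both interactions) to 3.67% (CBD against THC) of all rows. Before adjustment, p for the CBD interaction was 0.0097 for miR-148b-3p, 0.034 for miR-152-3p and 0.048 for miR-148b-5p by limma. It was 0.041 for mir-148b, 0.0042 for miR-152-5p, and 0.39 to 0.85 for miR-148a-3p, mir-148a and mir-152. Of all rows, 87 of 1363 were under 0.05. Among the abundant arms, miR-148b-3p was also under 0.05 for CBD against control (0.025) and against THC (0.027), and miR-152-3p for THC+LPS against LPS (0.044).

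Arm use and the balance between members were compared as log2 ratios of reads within a sample, which do not depend on the scaling. The 5p arm made up 15.3% ± 1.46 of miR-148b reads (SD, n = 18; range 13.2% to 18.7%), and its log2 ratio to 3p differed by 0.0043 with LPS (exact permutation p = 0.961, 2-sided, LPS labels permuted within cannabinoid setting). For miR-152 the 3p arm held 99.8% of pooled reads, and for miR-148a 90.9%. Over pooled reads the 5p share was highest for miR-148b, but that of miR-148a rests on 7 of 77 reads.

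The share of miR-152 in family mature reads was 21.1% ± 2.04 with LPS and 22.3% ± 1.40 without (SD, n = 9 each), a difference within the spread (log2 ratio to the other members -0.11; exact permutation p = 0.1695, adjusted p = 0.763). The lowest share, 16.1%, was in THC+LPS sample 27. The hairpin row of mir-148b equalled 4.48% ± 0.620 of miR-148b mature reads with LPS and 5.13% ± 0.406 without (SD, n = 9 each). Its log2 ratio differed by -0.20 with LPS, the smallest p of the 27 ratio tests (exact permutation p = 0.01325, adjusted p = 0.358), and 0 of 27 reached an adjusted p of 0.1. Leaving out CBD+LPS sample 38 took it to -0.25 and past that threshold.

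**Figure D4:**
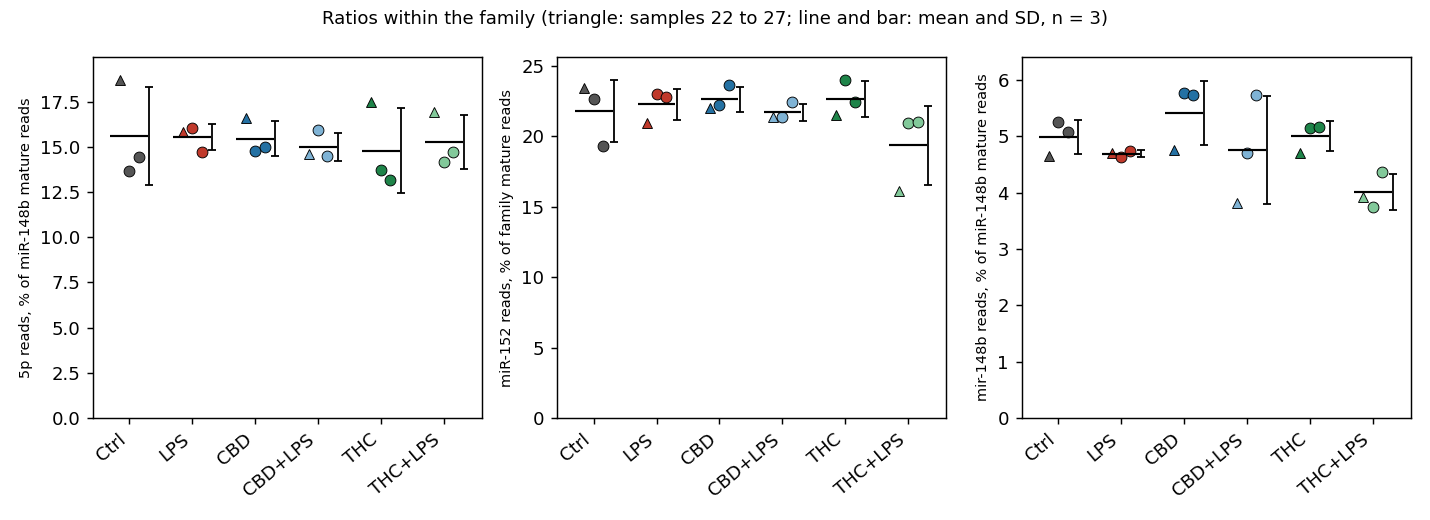
Ratios within the family by treatment, as percentages of reads on linear axes: the 5p arm of miR-148b, the share of miR-152, and the mir-148b hairpin row relative to mature reads. Points are samples (triangles 22 to 27), and lines and bars the mean and SD of 3 samples.

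The 3 abundant mature arms varied together across samples, and correlations were taken for these arms alone. Over the 18 samples, miR-148b-3p correlated with miR-148b-5p at r = 0.92 and with miR-152-3p at r = 0.77 (Pearson, log2(CPM + 1)), as a description over points that share library, depth and scaling. Outside the family, of 354 mature rows compared, the most similar to miR-148b-3p were miR-340-5p (r = 0.90), miR-192-5p (r = 0.90) and miR-30e-5p (r = 0.88), with a median of -0.10 over all rows compared. For miR-148b-5p they were miR-340-3p (r = 0.88), miR-340-5p (r = 0.86) and miR-19b-3p (r = 0.85). For miR-152-3p they were miR-3963 (r = 0.73), miR-101b-5p (r = 0.72) and miR-192-5p (r = 0.68).

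The same 7 letters CAGUGCA stand 1 base earlier, at bases 1 to 7, in other miRNAs, which overlap with the miR-148 and miR-152 seed in this shifted form. They are named for miR-130 and miR-301, or are miR-721, miR-6341 and miR-6389. Of the 7 such names, miR-301a-3p averaged 3304 CPM (2244 to 4155 over samples) and miR-130b-3p 2292 CPM (1732 to 3182), both above miR-148b-3p in mean level. Of the 4 that could be tested (miR-130a-3p, miR-130b-3p, miR-301a-3p and miR-6389), 0 were called in any comparison by limma.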

How the data were processed

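Small RNA libraries from BV-2 cells were prepared by the study with a TruSeq small RNA kit, aligned with BWA to mouse miRBase hairpins and mature miRNAs, and counted per name. The miRBase release used for alignment is not given in the sources used here. The deposited CPM values are reads scaled by library size and a TMM factor from edgeR. In columns whose sum exceeds that of plain CPM, the authors' values are the same quantity, treated here as a scaled signal. Whole reads were recovered for all values (tolerance 0.001) and gave the depths. limma 3.58.1 (R 4.3.3) with a mean-variance trend was fitted to log2(CPM + 1) for 1363 rows with at least 10 reads over 18 samples, with p-values adjusted by Benjamini-Hochberg over all rows. edgeR 4.0.16 and DESeq2 1.42.0 on recovered reads were alternatives. Ratios added 0.5 reads and used exact permutation tests, 9 measures by 3 effects, 27 in all. Every family row was named, with the called rows of the TLR list and, for each arm with a median of at least 10 reads, the rows most like it. The fits were tested on simulated data. Members, lists and tests were chosen with earlier results of these data known.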

Additional observations from a re-analysis of the deposited data

How the results depend on the processing

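The 34 single values were recomputed under 16 other settings and with each sample left out in turn, giving 1120 values, of which 1085 kept their direction and their side of the threshold, 30 reversed and 5 passed the threshold. Not every value was free to reverse. A log2 difference stays the same by construction where only the filter, the error estimate, the threshold or a balanced block differs. The same holds where the left-out sample belongs to a group outside the comparison. How many of the 1120 values this covers was not counted. Counts of called family rows or of ratios past the threshold moved in 5 of 502 cases. Leaving out 1 sample gave 0 to 1 called rows for CBD and for THC against control and 0 to 1 ratios for LPS (without CBD+LPS sample 38). The called rows were miR-152-3p without control sample 22, where 4.51% of all rows were called, and miR-152-5p without THC sample 25, where 0.451% were. Samples 28 to 39 alone gave 4 rows for the CBD interaction and 1, miR-152-3p, across the 6 groups, where 11.2% and 21.1% of all rows were called. The main tests were unpaired because the labels give no replicate number that groups share. A block of 3 sets by sample number, added after seeing the data, changed no call in the family.

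For THC against control the reversed log2 differences were -0.0422 by edgeR, -0.0522 by DESeq2 and -0.0241 with DESeq2 size factors for miR-148b-3p, -0.0139 by edgeR and -0.0252 by DESeq2 for miR-152-3p, and 0.0573 in samples 28 to 39 and 0.0305 with a composition covariate for miR-148b-5p. For mir-148b they were 0.0087 with library size alone, 0.0784 with reference miRNAs, 0.1223 in samples 28 to 39 and 0.076 with the composition covariate. For LPS against control, mir-148b gave -0.033 with library size alone and -0.0865 with reference miRNAs, which moved the median of all rows by -0.13 and -0.16. Reference miRNAs gave -0.0054 for miR-148b-3p in CBD against THC, and 0.037 for miR-148b-3p and 0.011 for miR-148b-5p in CBD+LPS against THC+LPS, where DESeq2 gave 0.0025 for miR-148b-3p and samples 28 to 39 gave 0.0056 for miR-148b-5p.

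With samples left out, THC against control ran from -0.1273 to 0.1817 for miR-148b-3p, -0.3215 to 0.2557 for miR-148b-5p, -0.1076 to 0.3322 for miR-152-3p and -0.1148 to 0.1484 for mir-148b. For miR-148b-5p, LPS against control ran from -0.02 to 0.5571, and CBD+LPS against THC+LPS from -0.1874 to 0.0592. The cause of these changes was not tested. Depth limits miR-148a, miR-152-5p and mir-148a, which stand at 0 to 7 reads a sample.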
